A study of Mus musculus with 5 samples.

Results

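The genes described here encode subunits of the mitochondrial respiratory chain, complexes I to IV, and of the ATP synthase, complex V. They were chosen by symbol: entries that begin with Nduf and a, b, c, s or v and a digit, Cox4 to Cox8 with a letter, Uqcr or Atp5, or that read Sdha to Sdhd. Of 19699 gene entries, 85 met this rule, 37 in complex I, 4 in complex II, 8 in complex III, 18 in complex IV and 18 in complex V. The 2 symbols Atp5l-ps1 and Atp5l-ps2 were dropped as numbered pseudogenes, while Atp5l2-ps, an annotated processed pseudogene, stayed in. The prefix of a symbol sets its complex here, although Ndufa4 is now known as a subunit of complex IV and Ndufa4l2 is its paralogue.

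The tissue was the large airway, trachea together with lung, of C57 mouse embryos at E13.5. The 2 mutant libraries came from embryos with Prmt5 removed from the lung epithelium, and the 3 control libraries from wild type littermates. The sample labels call the mutation a knockdown, the design text calls it a knockout and names Shh beside Prmt5, and neither gives the alleles or the driver of the deletion. A further label text on fat cell differentiation of cultured cells does not describe embryos and was not read as a treatment. Whole tissue was sequenced, so cells outside the epithelium keep the gene, and nothing states how many embryos a library held. The p-values below therefore cover library-to-library spread, and part of that spread may be technical.

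The respiratory chain passes electrons from NADH and succinate through complexes I, II and III to oxygen at complex IV, and pumps protons across the inner mitochondrial membrane. The ATP synthase lets the protons flow back and makes ATP. Complexes I, III, IV and V hold a catalytic core and small accessory subunits, while complex II has 2 catalytic subunits and 2 membrane anchors. Most subunits are encoded in the nucleus and imported, and some complex IV subunits have isoforms for lung, testis or striated muscle. The 13 subunits encoded by mitochondrial DNA were not analysed here.

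The libraries held 15652503 to 18682463 reads. Prmt5 was at 23.7 and 20.1 FPKM in mutants, against 28.7, 26.4 and 25.8 FPKM in controls (FPKM, fragments per kilobase, adjusts for gene length and library size). The mutant values were the lowest of the 5, and the difference did not pass (log2 change -0.29, adjusted p = 0.234 with limma). Epithelial markers were present, each at a mean of 8.08 FPKM or more. Xist, made from the inactive X of females, was at 0.0673 and 0.289 FPKM in mutants and at 57.3, 58.1 and 115.5 FPKM in controls. An index of male RNA, the mean level of 4 Y-linked genes relative to the highest library, was 1 and 0.873 in mutants, against 0.736, 0.579 and 0.148 in controls. Sex and genotype thus move together. Gm23935, a short RNA gene, took 30.1% and 64.8% of the summed FPKM in mutants and 7.69%, 51.3% and 22.6% in controls, which matters for any scale that fixes that sum.

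Most respiratory chain and ATP synthase genes had somewhat more RNA in mutants than in controls as deposited, but no single gene passed the test. Of the 82 genes tested, 70 had a positive log2 change (85.4%, against 38.9% of all genes tested), while under TPM scaling only 3 did. One of the 82, the pseudogene Atp5l2-ps, passed the filter on low values only through the mutants, so its direction was fixed. Without it 69 of 81 were positive (85.2%), 41 had both mutants above all controls and 21 were higher at an unadjusted p under 0.05. The median log2 change, mutant minus control on the log2(FPKM + 1) scale, was 0.20 for these genes and -0.06 for all 12838 genes tested. With limma 0 of 82 passed an adjusted p of 0.05, where 2.36% of all genes tested did. The lowest adjusted p was 0.0732, that of Cox6b2. At an unadjusted p under 0.05 there were 22 genes higher in mutants, against 6.53% of all genes, and 0 lower, against 12.3% of all genes. Voom on the recovered reads also called 0 and gave 22 at an unadjusted p under 0.05. In whole tissue, more cells of a type and more RNA per cell cannot be told apart.

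Both mutants lay above all 3 controls for 42 of the 82 genes, where 13.2% of all genes tested did. Both mutants lay below all controls for 3 genes, Ndufa4l2, Ndufb2 and Ndufv1, where 24.4% of all genes did. The groups overlapped for the other 37. Per library, the median deviation of the 82 genes from their own means was 0.06 and 0.19 in mutants 1 and 2, against -0.09, -0.02 and -0.12 in controls 1, 2 and 3. Mutant 2 was thus the highest library and mutant 1 lay between it and control 2. Without mutant 2 the median log2 change was 0.11, with 2 genes at an unadjusted p under 0.05, 1 of them higher. With this male RNA index as a covariate the median was 0.18, and 2 genes were at an unadjusted p under 0.05.

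The summed FPKM of all 85 genes was 6905 and 7485 in mutants, against 6083, 6421 and 5860 in controls, 1.18-fold higher. The sums did not overlap. Under TPM scaling the ratio of these sums was 0.803, since Gm23935 and a few other genes take a changing part of the total. On that scale the median of all genes moved to -0.59 and that of the 82 genes to -0.37. Relative to all genes the 82 stood 0.26 higher as deposited and 0.22 higher under TPM. This distance was 0.11 without mutant 2 and 0.39 without mutant 1. Without Gm23935, Lars2 and Rn18s-rs5 in the total, 58 of 82 were positive and the median was 0.14.

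The intervals set how firmly a lack of calls can be read. The 95% interval of the log2 change lay within 1.5-fold either way for 54 of 82 genes. It lay wholly above 0 for 22 genes and wholly below 0 for 0. Its half-width had a median of 0.29 and ran up to 1.73 for Cox6a2.

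**Figure D1:**
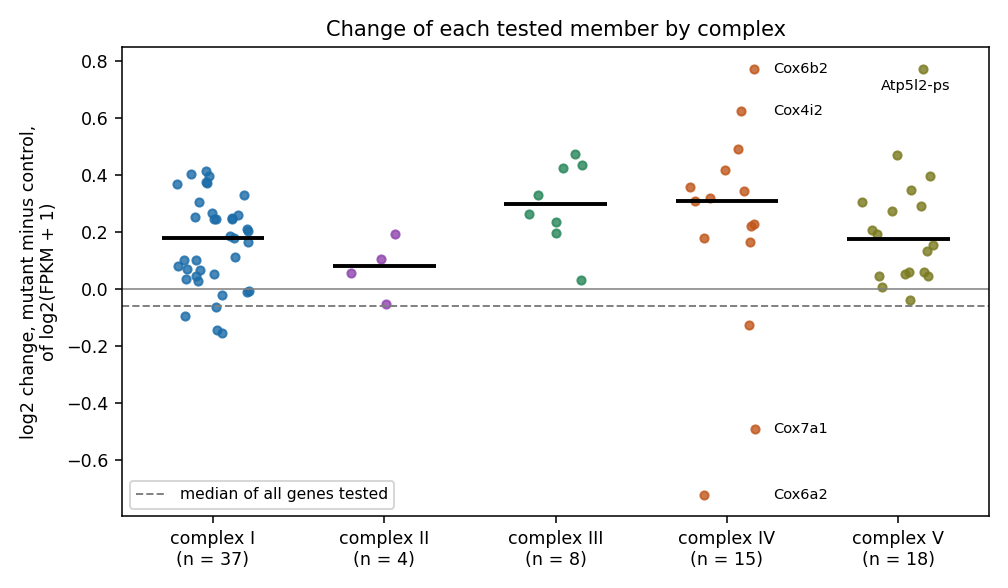
Log2 change of each tested gene (mutant minus control, log2(FPKM + 1) scale, vertical axis) by complex. Each point is a gene, black bars are medians of a complex (0.18, 0.08, 0.30, 0.31 and 0.17 for I to V), and the dashed line is the median of all genes tested, -0.06. Most points lie above 0 as deposited, and under TPM scaling all medians lie below 0.

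The 5 complexes did not all lean alike. Median log2 changes were 0.18 in complex I, 0.08 in complex II, 0.30 in complex III, 0.31 in complex IV and 0.17 in complex V. Under TPM scaling these medians were -0.39, -0.49, -0.27, -0.27 and -0.40. The order of the complexes was not tested. In complexes I, III and V, accessory or small subunits had higher medians than the core or F1 genes that met the symbol rule. This split into roles was made with the values known and has no test. The gap narrowed with the trend on gene length removed. The small and core subunits of complex III then had medians of 0.28 and 0.21, against 0.42 and 0.20 as deposited. The accessory and core subunits of complex I had 0.16 and 0.08, against 0.21 and 0.05 as deposited.

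Promoters of 66 of the 85 genes were taken from the RefSeq set (GRCm38.p6). Each window ran from 250 bases before to 50 after the gene start. Windows on chromosome 18, where Ndufa2 and Atp5a1 lie, were not searched. Genes of oxidative phosphorylation are known targets of NRF1, ETS family factors such as GABP, YY1 and estrogen-related receptors. The letters searched, on both strands, were GCGCNTGCG for NRF1, CCGGAAG for ETS, AANATGGC for YY1 and TCAAGGTCA for the receptors. A gene counted as matched if any of its windows held the letters. A match to any of these motifs was found for 45 of 66 genes (68.2%), against 21.2% of all genes with a window. These were 27025 genes, whether or not they were expressed or tested here. NRF1 letters were in 34.8%, against 7.12% of all genes. ETS letters were in 24.2%, against 9.93%, and YY1 letters in 24.2%, against 6.96%. Receptor letters were in 3.03%, against 0.466%. No window of the 66 genes held ETS and YY1 letters that shared bases.

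The changes of genes with and without a match were set side by side with no test of the difference. As deposited, the median log2 change was 0.19 over 23 genes with NRF1 letters and 0.25 over 41 without. For ETS it was 0.26 over 16 genes with the letters and 0.20 over 48 without, and for YY1 0.19 over 16 with them and 0.22 over 48 without. For the receptors it was 0.12 over 2 genes with the letters and 0.22 over 62 without. Such a match is a description of letters and not a bound site.

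The 4 windows below are shown for the genes with the smallest p of complexes I, III and IV and for the beta subunit of complex V, whose level barely differed. Each runs 5′ to 3′ on the gene's strand to 30 bases after the start, and capitals mark motif matches. The Ndufb11 window (chrX:20617590-20617869, minus strand) holds YY1 letters, the Uqcr10 window (chr11:4704315-4704594, minus strand) NRF1 letters read on the other strand, and the Atp5b window (chr10:128083057-128083336, plus strand) YY1 letters on the other strand. The Cox6b2 window (chr7:4753065-4753344, minus strand) holds none of the 4.
Ndufb11: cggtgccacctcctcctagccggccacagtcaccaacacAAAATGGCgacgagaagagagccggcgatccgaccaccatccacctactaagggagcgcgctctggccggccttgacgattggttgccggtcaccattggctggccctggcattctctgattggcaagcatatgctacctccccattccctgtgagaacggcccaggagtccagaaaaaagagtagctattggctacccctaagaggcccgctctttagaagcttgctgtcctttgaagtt
Uqcr10: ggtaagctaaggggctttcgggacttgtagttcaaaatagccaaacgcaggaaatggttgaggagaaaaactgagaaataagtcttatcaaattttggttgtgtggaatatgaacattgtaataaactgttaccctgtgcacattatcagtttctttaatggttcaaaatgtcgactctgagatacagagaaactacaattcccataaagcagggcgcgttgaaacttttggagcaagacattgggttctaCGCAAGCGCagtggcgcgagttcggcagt
Atp5b: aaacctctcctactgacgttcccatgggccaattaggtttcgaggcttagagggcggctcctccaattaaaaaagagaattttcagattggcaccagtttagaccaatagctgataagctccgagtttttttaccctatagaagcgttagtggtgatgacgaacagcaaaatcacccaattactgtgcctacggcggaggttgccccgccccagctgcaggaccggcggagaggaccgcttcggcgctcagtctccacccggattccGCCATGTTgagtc
Cox6b2: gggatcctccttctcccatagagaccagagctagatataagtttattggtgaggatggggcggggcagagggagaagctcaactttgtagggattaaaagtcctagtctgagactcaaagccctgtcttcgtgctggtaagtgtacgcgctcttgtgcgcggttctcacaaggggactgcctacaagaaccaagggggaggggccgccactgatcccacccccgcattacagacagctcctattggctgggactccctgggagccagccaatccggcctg

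In complex I, the NADH dehydrogenase, 30 of 37 genes had a positive log2 change as deposited, against 38.9% of all genes tested. The median of the 37 was 0.18, which was -0.39 under TPM scaling and 0.11 without mutant 2. Both mutants lay above all controls for 19 genes and below them for 3, against 13.2% and 24.4% of all genes tested. The summed FPKM was 2079 and 2201 in mutants, against 1810, 1913 and 1781 in controls, 1.17-fold higher. The 28 accessory subunits had a median of 0.21, with 25 positive. The 7 core subunits, which carry the flavin and the iron-sulfur clusters, had a median of 0.05, with 4 positive.

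Ndufb11, an X-linked accessory subunit of the membrane arm, was at 164 and 185 FPKM in mutants, against 125, 142 and 130.0 FPKM in controls. Both mutants were above all controls (log2 change 0.40, SE 0.12, adjusted p = 0.126). It was 1.32-fold higher in mean, at 174 ± 15.3 FPKM (SD, n = 2) in mutants and 132 ± 8.79 FPKM (SD, n = 3) in controls. In the annotation 12.9% of its exon bases lie opposite exons of Rbm10, whose reads cannot be told apart here, since the use of strand in counting is not given. The other X-linked genes, Ndufa1 and Cox7b, had log2 changes of 0.25 and 0.36.

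Ndufa2, an accessory subunit of the matrix arm, was at 122 and 125 FPKM in mutants, against 97.3, 101 and 86.7 FPKM in controls (log2 change 0.37, SE 0.11, adjusted p = 0.132). Its groups did not overlap. Exons of Tmco6 lie opposite 11.5% of its exon bases. Ndufb4, another membrane arm subunit, was at 54.2 and 69.8 FPKM in mutants and at 44.0, 51.0 and 44.2 FPKM in controls. Ndufb3 was at 70.0 and 78.3 FPKM in mutants and at 63.6, 58.5 and 49.3 FPKM in controls. Both were above all controls in both mutants, with log2 changes of 0.40 and 0.38 that did not pass. Ndufb2 was the lowest of the complex, at 1.83 and 1.88 FPKM in mutants and 1.96, 2.04 and 2.16 FPKM in controls.

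Among core subunits the values went both ways. Ndufv2, which holds an iron-sulfur cluster near the NADH site, was at 75.8 and 83.1 FPKM in mutants, against 64.1, 62.3 and 62.4 FPKM in controls (log2 change 0.33, adjusted p = 0.138). Ndufv1, which binds NADH and flavin, was at 38.6 and 35.1 FPKM in mutants, against 42.0, 38.9 and 42.2 FPKM in controls (log2 change -0.15, SE 0.10, adjusted p = 0.491). Both mutants were below the lowest control, mutant 1 by a small margin. Ndufs1, the largest core subunit, was at 12.3 and 12.5 FPKM in mutants and at 13.7, 11.6 and 13.7 FPKM in controls, and the groups overlapped (log2 change -0.06). With the length trend removed, Ndufs1 stood at 0.03. The core genes Ndufs3, Ndufs7 and Ndufs8 had log2 changes between -0.02 and 0.18.

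Complex II, succinate dehydrogenase, also belongs to the citric acid cycle. Its 4 genes had the smallest median, 0.08, with 0.03 without mutant 2, 0.03 without control 1, 0.14 without mutant 1 and -0.49 under TPM. Sdhd, a membrane anchor, was at 102 and 114 FPKM in mutants, against 95.9, 91.0 and 95.9 FPKM in controls. Both mutants were above all controls (log2 change 0.19, SE 0.10, adjusted p = 0.378). For the other members the groups overlapped. Sdha, the flavin subunit, was at 60.5 and 55.2 FPKM in mutants and at 62.8, 55.6 and 61.6 FPKM in controls. Sdhb, the iron-sulfur subunit, was at 55.6 and 65.2 FPKM in mutants and at 53.9, 56.6 and 57.2 FPKM in controls. The anchor Sdhc was at 40.8 and 41.3 FPKM in mutants and at 34.7, 42.2 and 42.0 FPKM in controls. The log2 changes of Sdha, Sdhb and Sdhc were -0.05, 0.11 and 0.06, with intervals within 1.5-fold either way.

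**Figure D2:**
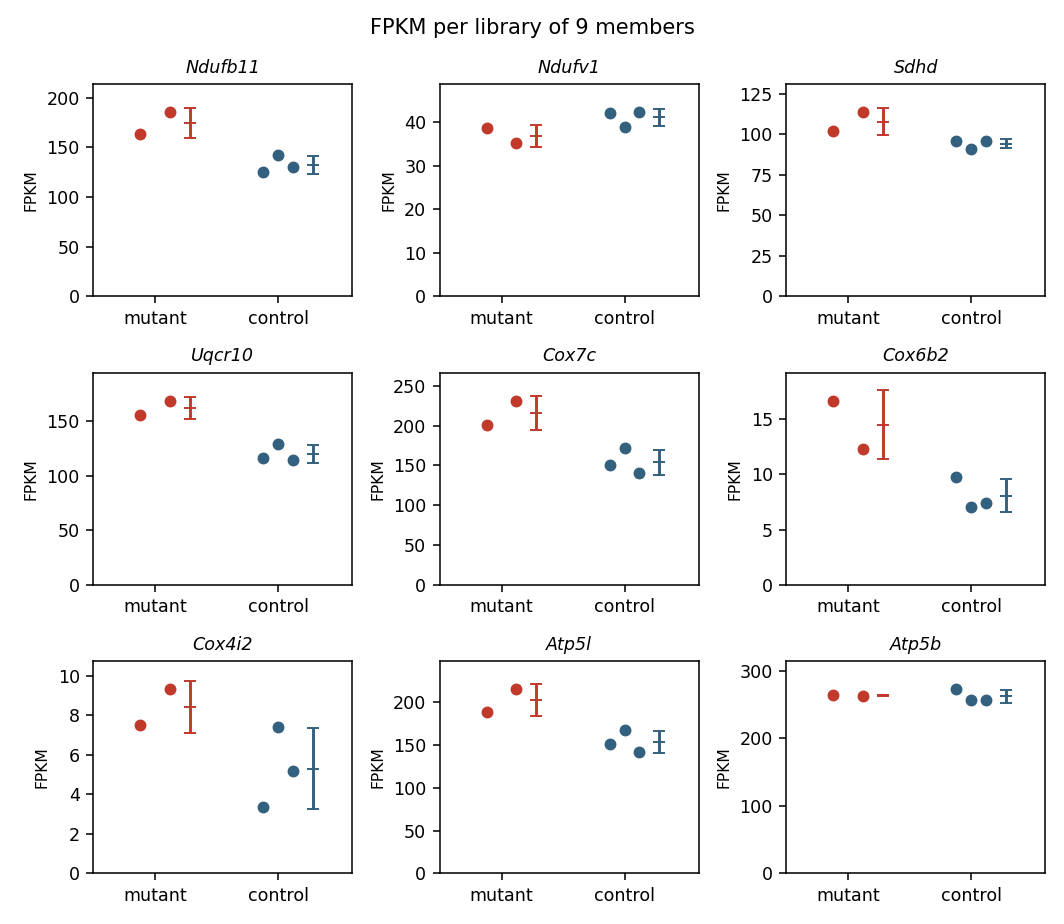
FPKM of 9 genes in each library, mutants left and controls right. Points are libraries, and the bar beside each group is its mean ± SD (n = 2 mutants, n = 3 controls). Mutants stand above all controls for Ndufb11, Sdhd, Uqcr10, Cox7c, Cox6b2, Cox4i2 and Atp5l, below them for Ndufv1, and among them for Atp5b; under TPM scaling only Cox6b2 and Cox4i2 of these keep a positive log2 change.

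Complex III, the cytochrome bc1 complex, hands electrons to cytochrome c. All 8 genes that met the symbol rule had a positive log2 change as deposited, against 38.9% of all genes tested. Their median was 0.30, and -0.27 under TPM. Cyc1, cytochrome c1 of the same complex, did not meet the rule and is not counted. It was at 123 and 95.4 FPKM in mutants and 93.3, 120 and 121 FPKM in controls. Its groups overlapped (log2 change -0.03). The 5 small subunits Uqcr10, Uqcr11, Uqcrb, Uqcrh and Uqcrq all had both mutants above all controls, where 13.2% of all genes tested did. The median of these 5 was 0.42. Their summed FPKM was 528 and 598 in mutants, against 423, 452 and 399 in controls, 1.33-fold higher. The 3 core genes had a median of 0.20.

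Uqcr10 was at 155 and 169 FPKM in mutants, against 116, 129 and 114 FPKM in controls (log2 change 0.43, SE 0.11, adjusted p = 0.0925). Its promoter is among the windows printed above. Uqcr11 was at 94.8 and 107 FPKM in mutants, against 66.1, 77.5 and 82.3 FPKM in controls (log2 change 0.42, adjusted p = 0.141). Uqcrh, the hinge protein at the cytochrome c side, was at 126 and 152 FPKM in mutants, against 110, 104 and 85.9 FPKM in controls (log2 change 0.47, adjusted p = 0.142). In all of these the lower mutant stood clear of the highest control. Uqcrfs1, the Rieske iron-sulfur protein, was at 93.5 and 99.1 FPKM in mutants and at 76.7, 89.8 and 78.8 FPKM in controls (log2 change 0.24). The core protein Uqcrc1 was at 51.5 and 46.5 FPKM in mutants and at 40.4, 51.2 and 53.0 FPKM in controls, with groups that overlapped (log2 change 0.03).

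In complex IV, cytochrome c oxidase, 15 of 18 genes were tested. As deposited 12 had a positive log2 change, against 38.9% of all genes tested. The median of the 15 was 0.31, which was -0.27 under TPM and 0.21 without mutant 2. Both mutants lay above all controls for 9 genes and below them for 0, against 13.2% and 24.4% of all genes tested. The summed FPKM was 1964 and 2155 in mutants, against 1708, 1834 and 1563 in controls, 1.21-fold higher. The 10 common isoforms had a median of 0.27, with 9 positive. Cox8a had the highest mean FPKM of all 85 genes, at 387 and 406 in mutants and 351, 349 and 248 in controls (log2 change 0.34). In control 3 Atp5a1 and Atp5b stood above it, at 324 and 257 FPKM.

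Cox7c, a small subunit of the membrane part, was at 201 and 232 FPKM in mutants, against 150.3, 171 and 140.3 FPKM in controls (log2 change 0.49, SE 0.13, adjusted p = 0.102). Cox7a2 was at 125 and 149 FPKM in mutants, against 101, 114 and 91.9 FPKM in controls (log2 change 0.42, adjusted p = 0.159). Cox7a2l, known to join complexes III and IV in supercomplexes, was at 186 and 193 FPKM in mutants, against 161, 149 and 145 FPKM in controls (log2 change 0.32, adjusted p = 0.166). None of these groups overlapped. Ndufa4 was at 150.4 and 174 FPKM in mutants, against 117, 135 and 113 FPKM in controls (log2 change 0.42, adjusted p = 0.144).

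Cox4i1, the main regulatory subunit, was at 218 and 221 FPKM in mutants and at 168, 207 and 191 FPKM in controls (log2 change 0.22). Exons of Emc8 lie opposite 9.94% of its exon bases. Cox5a was the common isoform on the other side of 0, at 99.98 and 102 FPKM in mutants, against 98.1, 122 and 112 FPKM in controls (log2 change -0.13, SE 0.12), and its groups overlapped. In the annotation 12.8% of its exon bases lie opposite Gm26631, a long noncoding RNA gene.

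The tissue isoforms were rare and differed from each other. Cox6b2, known from testis, was at 16.7 and 12.3 FPKM in mutants (291 and 213 reads), against 9.76, 7.03 and 7.38 FPKM in controls (202, 127 and 149 reads). Both mutants were above all controls, at 1.80-fold in mean (log2 change 0.77, SE 0.18, adjusted p = 0.0732). It passed with limma when genes under 5 FPKM were left out (adjusted p = 0.0489) or without control 1 (adjusted p = 0.0453), and over all alternatives its adjusted p ranged to 0.767. It made up 8.54% and 4.98% of Cox6b1 and Cox6b2 together in mutants, against 5.02%, 4% and 4.87% in controls. These shares overlapped.

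Cox4i2, the isoform of subunit 4 known from lung and its pericytes, was at 7.49 and 9.32 FPKM in mutants, against 3.33, 7.39 and 5.15 FPKM in controls. The lower mutant stood just above the highest control (log2 change 0.63, SE 0.26, adjusted p = 0.252). The log2 change was 0.38 without control 1 and 0.86 without control 2. It made up 3.32% and 4.05% of both subunit 4 isoforms in mutants, against 1.94%, 3.46% and 2.62% in controls, so these shares overlapped. Of 6 pericyte markers tested 0 passed, 3 had a negative log2 change and the median was -0.01. The sum of 7 pericyte markers was 94.5 and 75.6 FPKM in mutants and 69.2, 76.6 and 87.9 FPKM in controls. The markers did not move together. Rgs5 was at 17.3 and 18.1 FPKM in mutants and 6.38, 10.9 and 10.2 FPKM in controls, with both mutants above all controls as for Cox4i2. Abcc9 was at 2.12 and 2.27 FPKM in mutants and 3.48, 2.34 and 3.78 FPKM in controls, with both mutants below all controls. Cspg4 and Notch3 had log2 changes of -0.25 and -0.11, Kcnj8 and Pdgfrb 0.13 and 0.08, and the defining marker Higd1b was near 0. Their part in the Cox4i2 values was not tested.

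Cox6a2 and Cox7a1 are the isoforms of heart and skeletal muscle. Cox6a2 was at 2.15 and 14.5 FPKM in mutants, against 7.95, 5.68 and 24.5 FPKM in controls (log2 change -0.72, SE 0.74, adjusted p = 0.662). Cox7a1 was at 1.78 and 2.75 FPKM in mutants, against 3.40, 2.52 and 5.03 FPKM in controls (log2 change -0.49, SE 0.25, adjusted p = 0.340). Both groups overlapped, with control 3 the highest library in each. Without mutant 1 the log2 change of Cox6a2 was 0.43, and with the male RNA index as a covariate it was 0.90. Cox8b, also a muscle isoform, was under 1 FPKM in every library and not tested.

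The summed heart muscle markers stood in the same order of libraries as Cox6a2, a sum to which Myl7 gave the most. The sum of 10 such markers was 141 and 400 FPKM in mutants, against 231, 211 and 911 FPKM in controls, and 0 of 9 tested passed. Of the single markers, Myl7, Myl4, Tnnt2, Tnni3 and Sln stood in the order of Cox6a2, while Myh6, Myl3, Nppa, Ryr2 and Actn2 did not. Tnnt2 was at 3.95 and 9.37 FPKM in mutants, against 8.22, 5.3 and 25.8 FPKM in controls. Actn2 was at 1.80 and 4.58 FPKM in mutants, against 10.9, 8.88 and 25.9 FPKM in controls, with both mutants below all controls. Skeletal muscle markers stood otherwise. Their sum over 13 genes was 24.4 and 56.7 FPKM in mutants, against 266, 200.4 and 245 FPKM in controls. Of 11 tested 10 passed, all lower in mutants, where 2.36% of all genes tested passed. Neither list had a gene at 0 in every library, and the part of muscle tissue in the Cox6a2 and Cox7a1 values was not tested.

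**Figure D3:**
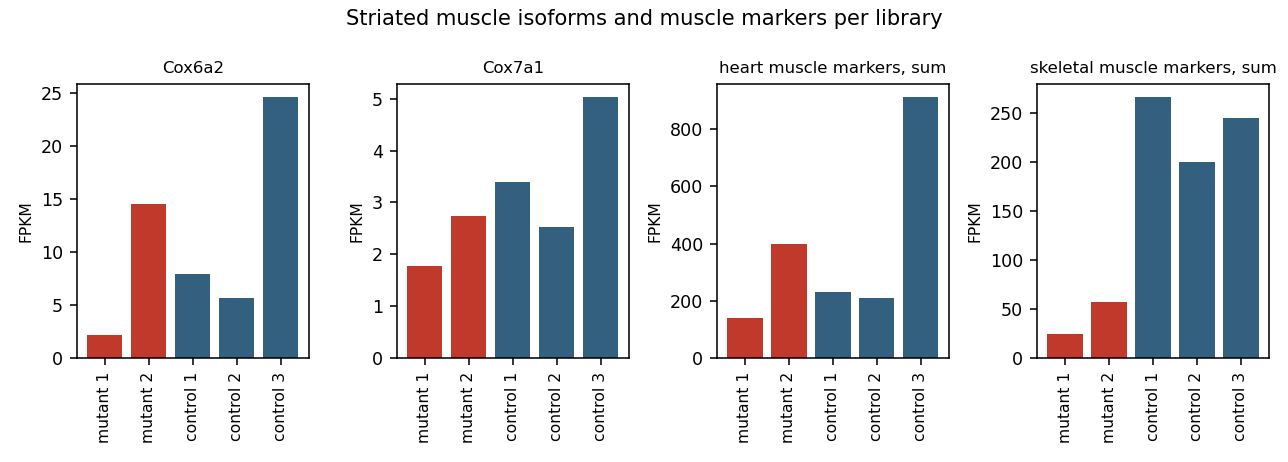
FPKM per library of the striated muscle isoforms Cox6a2 and Cox7a1 and the summed FPKM of heart and skeletal muscle markers, mutants in red and controls in blue, 1 bar per library. Cox6a2 and the summed heart markers are highest in control 3 and next in mutant 2, while skeletal muscle markers are low in both mutants.

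Cox7b2 and Cox8c, known from testis, were at the limit of detection. Cox7b2 had 1 and 0 reads in mutants and 0, 3 and 6 in controls. Cox8c had 1 and 0 reads in mutants and 0 in every control. Ndufa4l2, a paralogue of Ndufa4 known to respond to low oxygen, was at 6.68 and 6.26 FPKM in mutants, against 8.20, 6.90 and 6.75 FPKM in controls (log2 change -0.15, adjusted p = 0.599). It made up 4.25% and 3.46% of the pair in mutants, against 6.56%, 4.85% and 5.65% in controls. These shares did not overlap, and with 2 against 3 libraries an exact permutation test cannot go below p = 0.1.

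In complex V, the ATP synthase, 17 of 18 genes had a positive log2 change as deposited, against 38.9% of all genes tested. Without the pseudogene Atp5l2-ps it was 16 of 17. The median was 0.17, or 0.15 without that pseudogene, and it was -0.40 under TPM and 0.0999 without mutant 2. The roles are given in turn. The 5 genes of the F1 head, which makes ATP, had a median of 0.06 and sums of 902 and 946 FPKM in mutants, against 861, 876 and 873 FPKM in controls. The 3 small membrane subunits Atp5j2, Atp5k and Atp5l had a median of 0.35 and sums of 297 and 346 FPKM in mutants, against 239, 277 and 228 FPKM in controls. The 4 genes of the peripheral stalk, which holds the head still, had a median of 0.14.

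Atp5b, the catalytic beta subunit, was at 264 and 263 FPKM in mutants, against 273, 256 and 257 FPKM in controls (log2 change 0.01, SE 0.11). The mutants stood among the controls, and the 95% interval of -0.24 to 0.26 lay within 1.5-fold. Atp5a1, the alpha subunit, was at 319 and 322 FPKM in mutants, against 302, 297 and 324 FPKM in controls (log2 change 0.06). Atp5l, subunit g of the membrane part, was at 189 and 216 FPKM in mutants, against 151, 168 and 142 FPKM in controls. Both its mutants were above all controls (log2 change 0.40, SE 0.12, adjusted p = 0.147).

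The proton-carrying c ring is made from 3 genes that encode the same mature protein. Atp5g2 was at 176 and 192 FPKM in mutants, against 147, 146 and 108 FPKM in controls (log2 change 0.47, SE 0.16, adjusted p = 0.168). Atp5g1 was at 27.8 and 32.3 FPKM in mutants and at 24.4, 28.2 and 25 FPKM in controls (log2 change 0.21). Atp5g3 was at 105 and 102 FPKM in mutants and at 85.5, 108 and 107 FPKM in controls (log2 change 0.05). Atp5g2 gave 57.1% and 59.0% of their sum in mutants, against 57.3%, 51.7% and 45.0% in controls, and these shares overlapped. Atp5g2 was thus the most abundant of the 3 in every library, by a small margin in control 3, where Atp5g3 gave 44.6%.

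The pseudogene Atp5l2-ps was at 1.42 and 1.84 FPKM in mutants (7 and 9 reads), against 0.686, 0.590 and 0.352 FPKM in controls (4, 3 and 2 reads). It passed the filter on low values only through the mutants, so its log2 change of 0.77 had to be positive. Its reads may also belong to Atp5l, which resembles it. Exons of 28 of 83 placed genes share bases with another gene, 25 of them on the opposite strand. Reads of near-identical copies likewise cannot be assigned with certainty here.

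**Figure D4:**
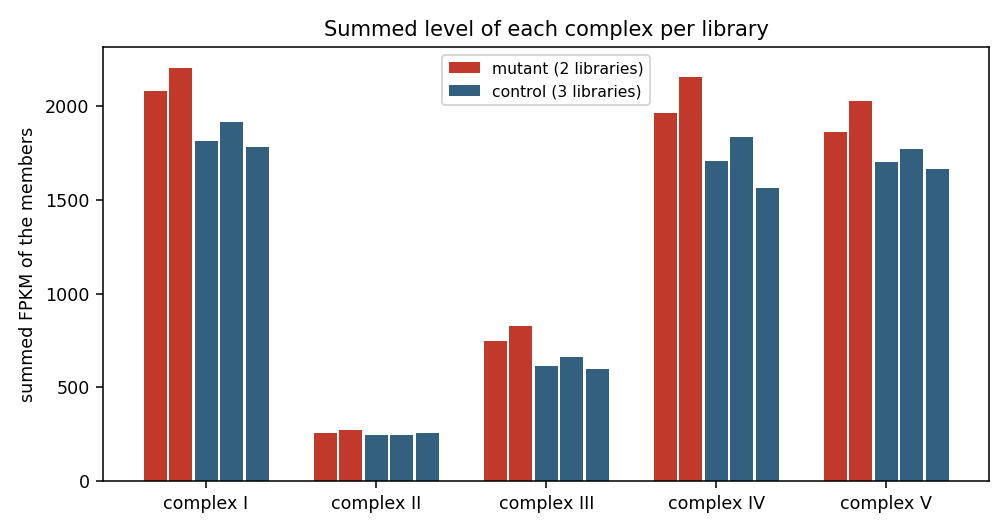
Summed FPKM of the genes of each complex in each library (vertical axis), mutants in red left of controls in blue. Both mutants stand above all controls in each complex as deposited, least in complex II, at 259 and 275 against 247, 245 and 257; under TPM scaling the sum over all complexes was lower in mutants.

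Gene length moved with the change. Over the 82 genes, Spearman's rho between length and log2 change was -0.40 (Pearson's r = -0.29), and over all genes tested rho was -0.12, both across genes that are not independent and share the same libraries. Of 28 genes under 1000 bases, 23 were positive with a median of 0.25, where all genes of that length had 0.07. Between 1000 and 2000 bases, 25 of 27 were positive with a median of 0.26, where all genes had 0.00. For 19 genes of 2000 to 4000 bases the median was 0.06, where all genes had -0.05. With the trend on length removed from each library, the median of the 82 was 0.18, that of all genes was 0.01, 69 were positive and 0 passed. After this step the medians of complexes I to V were 0.13, 0.13, 0.26, 0.22 and 0.21.

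**Figure D5:**
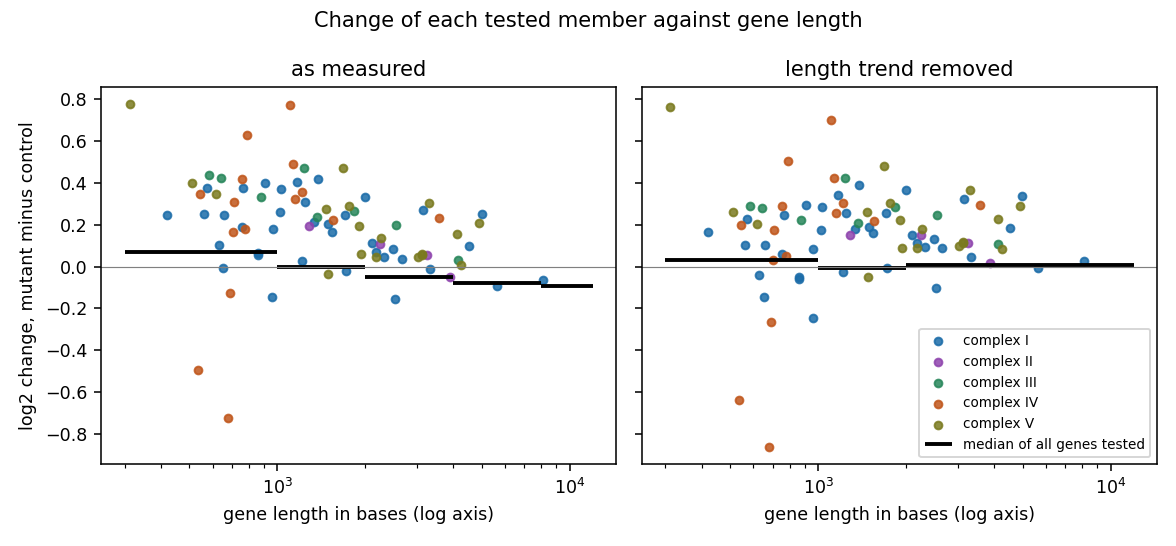
Log2 change of each tested gene (mutant minus control) against gene length in bases on a log axis, as measured (left) and with the length trend removed (right). Colours mark complexes, and black bars are medians of all genes tested in length classes. Short genes stand higher on the left, and most points stay above 0 on the right; under TPM scaling most log2 changes are negative.

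Among genes that build or regulate the complexes, 1 passed, where 2.36% of all genes tested did. This was 1 of 5 genes of ATP synthase assembly, with 0 of 15, 4, 8 and 20 for complexes I to IV and 0 of 15 regulators. Atpif1, which encodes the inhibitor that stops the ATP synthase from running backwards, was at 75.3 and 83.9 FPKM in mutants, against 49.6, 54.0 and 52.0 FPKM in controls. It was higher in both mutants than in all controls (log2 change 0.61, SE 0.11, adjusted p = 0.0358 with limma). The call was lost without any 1 of the 5 libraries (adjusted p = 0.0543 to 0.296), with the replicate number as a block (0.109), with no intensity trend in the variance (0.0551), when every gene was kept whatever its level (0.0785) and when the male RNA index was a covariate (0.178). Under TPM its log2 change was 0.04 (adjusted p = 0.962). Of the other 4 genes of ATP synthase assembly, Usmg5, a small subunit of the enzyme's membrane part, was at 235 and 306 FPKM in mutants and 196, 238 and 189 FPKM in controls. Its groups overlapped (log2 change 0.38, adjusted p = 0.265).

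Assembly factors had medians near 0, and none passed. The medians were 0.00 over 15 genes for complex I, 0.00 over 4 for complex II, 0.05 over 8 partners and factors for complex III and 0.05 over 20 for complex IV. Pet100, a complex IV factor, was at 5.22 and 5.43 FPKM in mutants, against 3.02, 3.77 and 3.35 FPKM in controls (log2 change 0.53, adjusted p = 0.0840). Ndufaf2, a complex I factor, was at 40.2 and 50.1 FPKM in mutants, against 35.0, 35.7 and 25.6 FPKM in controls (log2 change 0.49, adjusted p = 0.187). Ndufaf4 and Ndufaf3 had log2 changes of -0.23 and -0.22. Sdhaf4 had 0.24, Sdhaf2 -0.04 and Sdhaf3 0.00. Uqcc2 had 0.35, Ttc19 -0.30 and Cycs, which encodes cytochrome c, 0.18. Higd2a and Coa3 had 0.25 and 0.29, and Atpaf2 -0.16.

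The regulators of mitochondrial biogenesis showed no lean as a group. Of 15 tested, 0 passed, 8 were positive and the median was 0.00. Tfb1m, Tfam and Yy1 had the smallest p, with log2 changes of -0.15, 0.13 and -0.17. Nrf1, whose motif letters were frequent in the promoters, was at 5.70 and 5.27 FPKM in mutants and 5.66, 5.15 and 5.21 FPKM in controls. Its groups overlapped (log2 change 0.03).

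Neighbouring pathways had 0 genes past the test, and medians close to or below that of all genes, -0.06, as deposited. The citric acid cycle had 4 of 17 genes positive and a median of -0.05. Citrate synthase (Cs) was at 89.8 and 86.9 FPKM in mutants and 98.2, 104 and 94.2 FPKM in controls (log2 change -0.16), and Idh2 had -0.17. Glycolysis had 6 of 20 positive and a median of -0.13. Its genes with the smallest p were Eno3 (-0.60), the muscle enolase, Gpi1 (-0.28) and Pfkp (-0.48). Genes of the hypoxia response had 5 of 12 positive and a median of -0.08. Egln3, an oxygen-sensing hydroxylase, was at 7.44 and 6.48 FPKM in mutants, against 9.97, 9.40 and 10.1 FPKM in controls (log2 change -0.45, adjusted p = 0.0905). Bnip3 and Hif1a had -0.47 and -0.30.

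Carriers, uncouplers and porins of the mitochondrion had 1 of 7 positive and a median of -0.04. Ucp2, an uncoupling protein family member of the inner membrane, was at 10.6 and 9.46 FPKM in mutants, against 17.1, 15.8 and 14.0 FPKM in controls. Both mutants were below all controls (log2 change -0.59, SE 0.12, adjusted p = 0.0570). It passed with genes under 5 FPKM left out (0.0385), with voom (0.0279) and under TPM without Gm23935, Lars2 and Rn18s-rs5 in the total (0.0409). Over all alternatives its adjusted p ranged to 0.662. The ADP/ATP carrier Slc25a5 had a log2 change of -0.15 and the porins Vdac1, Vdac2 and Vdac3, which let metabolites through the outer membrane, -0.02, -0.14 and -0.01. Vdac1 was at 114 and 116 FPKM in mutants and 115, 119 and 117 FPKM in controls, and its groups overlapped.

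Cell type markers also moved with genotype. Calls in these lists stand against 2.36% of all genes tested. Summed markers of mesothelium were at 63.5 and 92.6 FPKM in mutants, against 10.9, 49.2 and 31.96 FPKM in controls, with 0 of 4 past the test. Of these 4, Msln went the other way (log2 change -0.56). Those of smooth muscle were at 184 and 144 FPKM in mutants, against 406, 254 and 288 FPKM in controls, and 1 of 4 passed. Neuron markers were at 40.4 and 32.5 FPKM in mutants and 71.6, 54.3 and 75.1 FPKM in controls, and 1 of 5 passed. Both mutants lay below all controls for 4 of 4 smooth muscle and 5 of 5 neuron markers tested, where 24.4% of all genes did. Cartilage markers were at 42.2 and 36.4 FPKM in mutants and 79.0, 67.1 and 55.7 FPKM in controls, and 2 of 3 passed, both lower. The remaining marker, Sox9, was at 25.5 and 23.2 FPKM in mutants and 17.3, 26.4 and 19.1 FPKM in controls (log2 change 0.23). Mesenchyme markers were at 1797 and 1522 FPKM in mutants and 1843, 1880 and 2398 FPKM in controls, and 1 of 8 passed, Tbx4, higher. Of the 8, Tcf21, Tbx4 and Tbx5 had a positive log2 change and the other 5 a negative one. The sums for epithelium, endothelium, macrophages and red blood cells overlapped between groups, with 0 of 10, 7, 5 and 8 past the test. Single epithelial markers leaned lower, with both mutants below all controls for 6 of 10, where 24.4% of all genes were. At an unadjusted p under 0.05 with limma 4 were lower, where 12.3% of all genes were, and the median log2 change was -0.64. Their sum was highest in control 1, at 755 FPKM against 387 and 285 FPKM in controls 2 and 3. Foxa2, a transcription factor of the airway epithelium, was at 9.59 and 9.95 FPKM in mutants, against 27.6, 17.3 and 15.4 FPKM in controls (log2 change -0.92, adjusted p = 0.0833). None of the 12 lists had a gene at 0 in every library. Their part in the levels of respiratory chain genes was not tested.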

How the data were processed

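RNA of whole airway tissue was measured in 2 mutant and 3 control libraries, grouped by the genotype labels. RNA came from an RNeasy purification and libraries from a SMARTER mRNA kit, per the labels' protocols. FPKM of all genes stand in 1 table made by the authors, whose name gives the unit, and the submitters' processing notes name GRCm38 (mm10). Which aligner, counter and annotation were used, and whether strand was, is not given in the sources used here. All columns belonged to a sample.

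In 100% of entries the FPKM were whole multiples of 1 read at a relative tolerance of 1e-09. Gene lengths came from GENCODE M21 (GRCm38) for 13965 entries. For 5569 entries they came from these steps and for 165 from the steps scaled to the annotation, so whole reads there are no check. The lengths gave the reads of each gene and library, with 97.5% to 97.6% of reads in listed genes. The test was limma 3.58.1 in R 4.3.3 (two-sided, moderated variance with an intensity trend) on log2(FPKM + 1), with a minimum of 1 FPKM in 2 libraries or more, with Benjamini-Hochberg adjustment over all 12838 genes and a threshold of 0.05. It was also run on simulated counts of independent genes. These held none of the sex, length or scaling differences described above, so that run does not cover them. Exact permutation of 5 libraries cannot go below p = 0.1, so single values and sums have no test. Intervals are at 95%.

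The members and lists were chosen with earlier results of these data known. Genes named were the 2 with the smallest p and the most abundant of each complex, all of complex II, 21 isoform and core genes given whatever they show, and of each pathway list the 3 with the smallest p. Of these, 1 is not reported here, though counts include it. Further genes described were chosen after their values were seen, as were the roles within complexes. Examples are Ndufb2, Ndufb3, Ndufb4, Ndufv2, Uqcrh, Cyc1, Cox7a2, Vdac1, Vdac3, Nrf1, Tbx4 and single cell type markers. Genes with the most similar profile are not given, since 5 libraries are too few for correlations. Alternatives covered the pseudocount, the filter, scalings (TPM, median ratio, quantile), voom on recovered reads, the male RNA index, a replicate block, the length trend (lowess, span 0.3) and each library left out.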

Additional observations from a re-analysis of the deposited data

How the results depend on the processing

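Over all settings the members called numbered 0 or 1, apart from 3 at an adjusted p threshold of 0.1. These 3 were Cox6b2, Uqcr10 and Atp5l2-ps, a pseudogene that passed the filter only through the mutants, so 2 without it. The 1 was Cox6b2, past the threshold when genes under 5 FPKM were left out and when control 1 was left out, so that leaving out single libraries gave 0 to 1. The positive median of the members held under pseudocounts of 0.1 and 0.5, no filter, voom, no trend, quantile normalization, median ratio scaling, the male RNA index, the length trend and each library left out, and turned under TPM. Median ratio scaling gave a summed ratio of 1.25 and medians of 0.28 over the members and 0.26, 0.16 and 0.26 for complexes I, II and V. TPM gave 3 members with a positive change, 0 with both mutants above all controls, a summed ratio of 0.803 and medians of -0.37 over the members and -0.39, -0.49, -0.27, -0.27 and -0.40 for complexes I to V. With Gm23935, Lars2 and Rn18s-rs5 left out of the total, complexes I and II had medians of 0.12 and 0.020. The male RNA index as a covariate gave 0.20 for complex II. Leaving out single libraries gave medians of 0.11 to 0.27 over the members, 0.11 to 0.24 for complex I, 0.030 to 0.14 for complex II and 0.21 to 0.38 for complex IV. The deviations from group means of mutant 1 and control 1 had r = -0.067 and those of mutant 2 and control 2 r = 0.020. With 2 mutants their deviations mirror each other, so these correlations cannot decide whether replicate numbers paired the libraries. With the replicate number as a block, 0 members were called, 67 were positive, 9 were at an unadjusted p under 0.05, and the median was 0.17 over the members and 0.21 for complex IV, while 259 of all genes were called. Over all genes the calls numbered 303 in the test as described, and 69 with no filter, 67 under TPM, 603 with voom, 94 with the male RNA index, 21 without mutant 1 and 12 without mutant 2.

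Single genes whose log2 change turned sign are given with the value it took. Under TPM it was -0.17 for Ndufb11, -0.20 for Ndufa2, -0.38 for Sdhd, -0.46 for Sdhb, -0.14 for Uqcr10, -0.15 for Uqcr11, -0.083 for Cox7c, -0.23 for Cox8a, -0.18 for Atp5l, -0.51 for Atp5a1, -0.51 for Sdhc, -0.25 for Cox7a2l, -0.16 for Ndufa4 and -0.36 for Atp5g1. On the same scale it was -0.10 for Atp5g2, -0.53 for Atp5g3, -0.54 for Uqcrc1, -0.34 for Uqcrfs1, -0.35 for Cox4i1, -0.57 for Atp5b, -0.077 for Ndufaf2, -0.30 for Sdhaf4, -0.44 for Sdhaf3, -0.22 for Uqcc2, -0.38 for Cycs, -0.32 for Higd2a, -0.28 for Coa3, -0.20 for Usmg5 and -0.42 for Tfam. With the 3 genes left out of the TPM total it was -0.0003 for Atp5a1, -0.0049 for Sdhc, -0.015 for Atp5g3, -0.028 for Uqcrc1, -0.053 for Atp5b and -0.043 for Sdhaf3. Median ratio scaling gave 0.032 for Sdha, 0.016 for Ndufs1 and 0.040 for Sdhaf2. Quantile normalization gave -0.027 for Atp5a1, -0.015 for Atp5b and 0.023 for Sdhaf2. Removing the length trend, an alternative chosen after seeing the data, gave 0.018 for Sdha, 0.028 for Ndufs1 and 0.016 for Sdhaf2. The male RNA index gave -0.036 for Cox8a, 0.90 for Cox6a2, -0.041 for Atp5b, 0.034 for Yy1 and 0.014 for Eno3. The replicate block gave -0.0052 for Atp5b. Leaving out single libraries gave ranges of -1.87 to 0.43 for Cox6a2, -0.087 to 0.11 for Uqcrc1, -0.11 to 0.018 for Sdhaf2, -0.0066 to 0.22 for Sdhb, -0.12 to 0.013 for Sdha, -0.084 to 0.087 for Sdhaf3, -0.036 to 0.10 for Sdhc, -0.065 to 0.10 for Atp5g3 and -0.0077 to 0.038 for Atp5b. The causes of these changes were not tested. The counts of positive and of non-overlapping members and the summed ratio were put through the alternatives after their values were seen. Depth limits the genes with few reads, such as Cox7a1 and Atp5l2-ps.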
